A study of Mus musculus with 6 samples.

Results

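The genes described here are 10 of the 24346 rows of a messenger RNA table from the mouse epididymis, taken by gene symbol. They encode the precursors of 4 neuropeptides (Penk, Vip, Adcyap1 and Nts) and 6 proteins that bind such peptides (Ntsr1, Ntsr2, Sort1, Vipr1, Vipr2 and Oprd1). The genes were chosen by function and by their FPKM in the busulfan and DMSO libraries, which were already known, so these levels are given as a description with no test. Initial segment and caput were taken as 1 tissue, the proximal end of the duct in which sperm mature. All mice were Wild-type and 12 weeks old. The DMSO group (3 libraries) received the solvent dimethyl sulfoxide by intraperitoneal injection, and the Busulfan group (3 libraries) received busulfan, a DNA-alkylating drug that depletes germ cells of the testis, by the same route. The sources used here give no dose, time to collection or strain. Libraries are numbered 1 to 3 in each group, and nothing says that each is a separate mouse, so p-values measure the spread between these libraries, which may be technical. The comparison asks how the proximal epididymis differs after a drug that removes germ cells, and a direct action of the drug on the duct cannot be told apart from an action through germ cell loss.

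Neuropeptides are cut from larger precursor proteins inside secretory vesicles by proprotein convertases and carboxypeptidases, and most act on G protein-coupled receptors of nearby cells. Enkephalins act on the delta and mu opioid receptors, which inhibit adenylyl cyclase. VIP and PACAP are sister peptides that share the receptors encoded by Vipr1 and Vipr2, which raise cyclic AMP. Neurotensin acts on a high-affinity receptor (Ntsr1), on a receptor of lower affinity (Ntsr2) and on sortilin (Sort1), a sorting receptor of the Golgi and endosomes. In the male tract VIP is known as a transmitter of autonomic nerves, and proenkephalin mRNA is known from the rodent epididymis.

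Levels are in FPKM as normalized by the authors, a unit per length of transcript, so different genes can be set side by side. Each library summed to between 625087 and 732495 FPKM, and 5596 rows were at 0 in every library. Some ribosomal or proteasome subunit genes (4 of 120) were also at 0 in at least 1 library. Whether a 0 is absent RNA or a failed estimate was not tested, so such a gene is called listed at 0. Epcam, an epithelial marker, was at 232 to 240 FPKM with DMSO and 208 to 215 with busulfan. Low values come in whole multiples of a step. Relative to DMSO replicate 1 the size of that step ran from 0.924 to 1.08, read from 439 to 520 low genes per library, of which 123 to 159 lay within 0.015 of that ratio on the natural log scale. The step also carries the authors' normalization, and whether 1 step is 1 fragment was not tested.

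**Figure D1:**
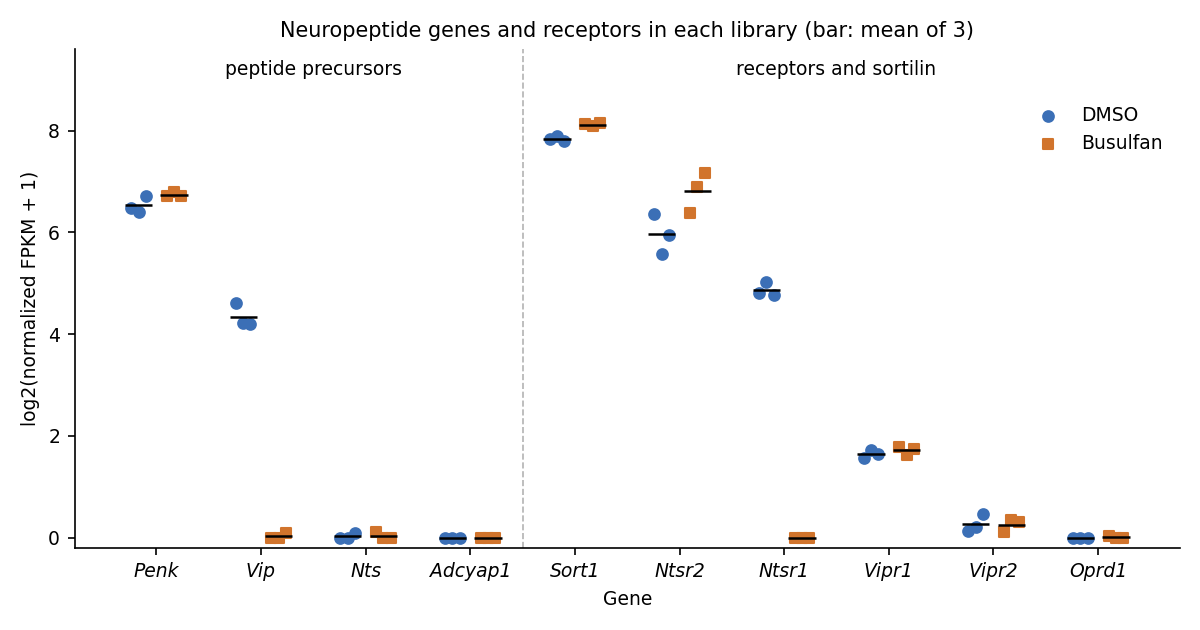
Level of each of the 10 genes in every library, on a log2(normalized FPKM + 1) axis, with circles for DMSO, squares for busulfan and a bar at the mean of 3 libraries. Vip and Ntsr1 stand at 17.5 to 31.7 FPKM in the DMSO libraries and at or next to 0 in the busulfan libraries, while Sort1, Penk and Ntsr2 are the most abundant in both groups.

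Among the precursors, Penk was the most abundant. Penk (NCBI gene 18619; chromosome 4, 4133531 to 4138819, minus strand, GRCm38) encodes proenkephalin, and its coding sequence holds 6 in-frame copies of Met-enkephalin and 1 of Leu-enkephalin, of 5 residues each, all in exon 2. A pair of basic residues (lysine or arginine) directly follows 4 of the 6 Met-enkephalin copies and the Leu-enkephalin copy. The coding stretches below show the last Met-enkephalin copy before the Leu-enkephalin copy and that Leu-enkephalin copy. The codon that tells them apart is in capitals.
Met-enkephalin, chr4:4134001-4134015, minus strand: tacgggggcttcATG
Leu-enkephalin, chr4:4133941-4133955, minus strand: tatgggggcttcCTG

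DMSO replicates 1 to 3 held Penk at 88.7, 83.6 and 105 FPKM, and busulfan replicates 1 to 3 held it at 104, 111 and 104 FPKM. The groups overlapped, since DMSO replicate 3 was above the lowest busulfan libraries. The means were 92.3 ± 11.0 and 106 ± 3.86 FPKM (SD, n = 3 per group), a log2 difference of 0.20 on the log2(FPKM + 1) scale used for all log2 values here. An antisense gene, A830012C17Rik, overlaps Penk, and the sources used here do not say whether the authors counted by strand.

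Vip (NCBI gene 22353; chromosome 10, 5639218 to 5647617, plus strand) encodes the precursor of both VIP and PHI, a related peptide. Vip was at 23.3, 17.6 and 17.5 FPKM with DMSO. In busulfan replicates 1 and 2 Vip was listed at 0, and in replicate 3 it was at 0.0627 FPKM. All DMSO libraries were high and all busulfan libraries were at or next to 0, so the groups were far apart. The log2 difference was -4.31. Taking the single busulfan value as 1 step, the DMSO values came to 403, 328 and 327 steps. No fold is given against a group with 2 libraries at 0. In bulk tissue, fewer cells of a type and less RNA per cell cannot be told apart.

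Adcyap1 (NCBI gene 11516; chromosome 17, 93199017 to 93206537), which encodes PACAP, was listed at 0 in all 6 libraries. The 7 codons that open VIP, PHI and PACAP show how close these peptides are. They are printed below, 5′ to 3′, from the GENCODE transcripts, with the codons of the first residue, histidine, and of the phenylalanine in capitals.
VIP in Vip exon 5, chr10:5644024-5644044, plus strand: CACtctgatgccgtcTTCaca
PHI in Vip exon 4, chr10:5643533-5643553, plus strand: CATgctgatggagttTTCacc
PACAP in Adcyap1 exon 5, chr17:93203990-93204010, plus strand: CACtcggacggcatcTTCaca
The coding sequences of Vip and Adcyap1 were identical at 63.5% of 474 aligned bases, and the longest run shared by their transcripts was 13 bases.

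Nts (NCBI gene 67405; chromosome 10, 102481756 to 102490486) encodes the precursor of neurotensin and neuromedin N. It was listed at 0 in 4 libraries and stood at 0.0724 FPKM in DMSO replicate 3 and 0.0812 FPKM in busulfan replicate 1. The values are equal once scaled by the step of each library, and each is taken as 1 step. Neurotensin mRNA was thus at or next to 0 in both groups.

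The neurotensin receptor genes differed from each other in direction. Ntsr1 (NCBI gene 18216; chromosome 2, 180499976 to 180544980, plus strand), the gene of the high-affinity receptor, was at 26.9, 31.7 and 26.3 FPKM with DMSO and was listed at 0 in all 3 busulfan libraries. The DMSO libraries lay close together, at 28.3 ± 2.95 FPKM (SD, n = 3), and the log2 difference was -4.87. Ntsr2 (NCBI gene 18217; chromosome 12, 16653382 to 16660227, plus strand) was at 81.4, 47.0 and 60.9 FPKM with DMSO and at 82.7, 117 and 143 FPKM with busulfan. The busulfan libraries were all higher, but DMSO replicate 1 and busulfan replicate 1 nearly touched. The Ntsr2 means were 63.1 ± 17.3 and 114 ± 30.3 FPKM (SD, n = 3 per group), 1.81-fold higher with busulfan, with a log2 difference of 0.85. Ntsr1 made up 24.9%, 40.3% and 30.1% of the summed FPKM of both receptors in the DMSO libraries and none of it in the busulfan libraries. The sum itself was 108, 78.6 and 87.2 FPKM with DMSO and 82.7, 117 and 143 FPKM with busulfan, so it overlapped between groups. The coding sequences of Ntsr1 and Ntsr2 were identical at 69.1% of 1127 aligned bases, and the longest run shared by their transcripts was 14 bases.

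Sort1 (NCBI gene 20661; chromosome 3, 108284082 to 108361511, plus strand), which also carries lysosomal proteins and binds proneurotrophins, was the most abundant of the 10 genes. DMSO replicates 1 to 3 gave 228, 237 and 223 FPKM for Sort1, and busulfan replicates 1 to 3 gave 278, 271 and 282 FPKM. All busulfan libraries were higher and the groups did not overlap. The means were 229 ± 7.18 and 277 ± 5.59 FPKM (SD, n = 3 per group), 1.21-fold higher with busulfan, with a log2 difference of 0.28. The genes Gm12523 and Gm43099 overlap Sort1 and have no row of their own in the table.

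The receptor genes for VIP and for enkephalins were low in both groups. Vipr1 (NCBI gene 22354; chromosome 9, 121642716 to 121672954) was at 1.96, 2.28 and 2.14 FPKM with DMSO and at 2.42, 2.101 and 2.33 FPKM with busulfan, with groups that overlapped and a log2 difference of 0.07. Vipr2 (NCBI gene 22355; chromosome 12, 116077726 to 116146261) was at 0.0963, 0.156 and 0.378 FPKM with DMSO and at 0.0749, 0.274 and 0.235 FPKM with busulfan. To within 0.1 step, these Vipr2 values are whole multiples of a step of 0.0241 FPKM, in the scale of DMSO replicate 1, namely 4, 7 and 17 steps with DMSO and 3, 12 and 9 with busulfan. The libraries of 1 group thus differed more from each other than the group means did. Oprd1 (NCBI gene 18386; chromosome 4, 132110726 to 132144486), the delta opioid receptor gene, was listed at 0 in 5 libraries and at 0.0208 FPKM in busulfan replicate 1.

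In the order of levels in the DMSO libraries, Sort1 came first, then Penk, Ntsr2, Ntsr1, Vip, Vipr1, Vipr2 and Nts, with Adcyap1 and Oprd1 at 0. From Sort1 to Vipr2 no neighbouring pair of that order overlapped in its DMSO libraries, and neither did Vipr2 and Nts, at 0.0963 FPKM or more and 0.0724 FPKM or less. In the busulfan libraries Penk (104 to 111 FPKM) and Ntsr2 (82.7 to 143 FPKM) overlapped, and Vip and Ntsr1 stood below Vipr2. By the mean over the DMSO libraries, Sort1 was the 384th gene of the table, Penk the 924th, Ntsr2 the 1348th, Ntsr1 the 2980th and Vip the 4141st.

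**Figure D2:**
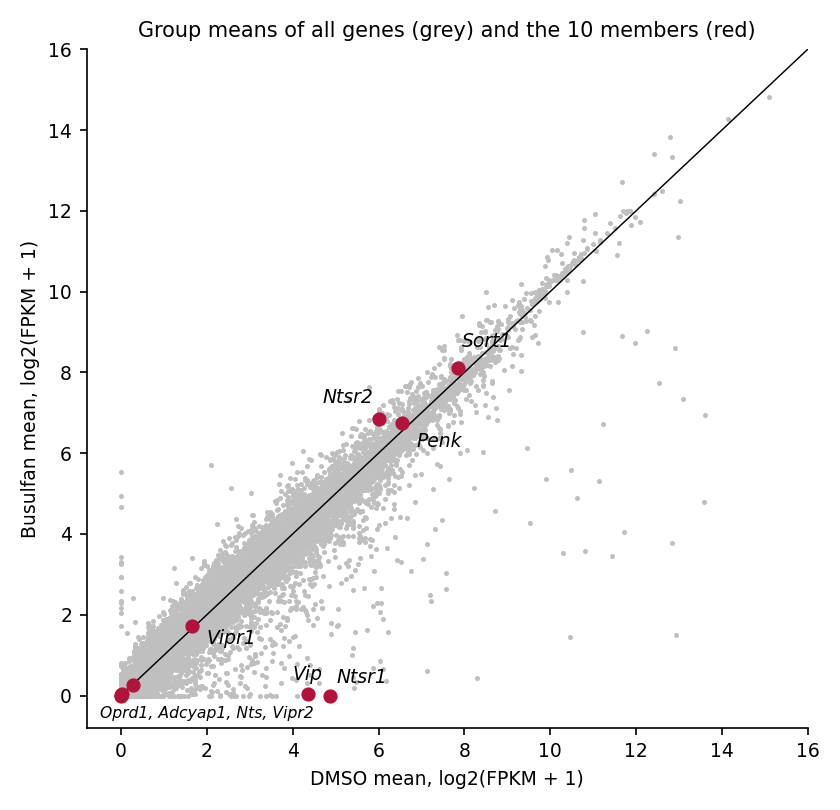
Mean level of every gene in the DMSO libraries (horizontal axis) against the busulfan libraries (vertical axis), both as log2(FPKM + 1), with all genes in grey, the 10 genes in red and a line of equal levels. Vip and Ntsr1 lie on the floor of the plot at a DMSO mean of 19.5 and 28.3 FPKM, while Ntsr2 and Sort1 lie above the line.

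Few other genes had the pattern of Vip and Ntsr1. Of 6342 genes at 10 FPKM or more in every DMSO library, Vip and Ntsr1 were the 2 under 0.1 FPKM in every busulfan library, and Ntsr1 was the 1 listed at 0 in all of them. With the lower limit at 0.5 FPKM there were 9 such genes, and at 1 FPKM there were 19. In the opposite direction the limits of 10 and 0.1 FPKM gave 1 gene, the microRNA gene Mir8094. These limits were chosen after the values were seen, and the counts describe the table. Of the 10 genes, 6 reached the mean of 1 FPKM needed to enter the fit across all genes, and 4 of those were past its threshold, 2 higher (Ntsr2 and Sort1) and 2 lower (Vip and Ntsr1). The same limma fit at a Benjamini-Hochberg adjusted p under 0.05 called 42.8% of 12848 tested genes, 20.8% higher and 22.1% lower. The groups did not overlap for the same 4 genes, against 54.6% of tested genes. Since the genes were picked with these values known, nothing is read from those counts.

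By the mean absolute difference between log2 profiles, each centred on its mean over the 6 libraries, the tested genes nearest to Ntsr1 were Actg2 (0.09), Etv5 (0.11) and Klrb1c (0.14). Actg2, the enteric smooth muscle actin gene, went from 1443 ± 110 to 46.8 ± 6.003 FPKM, and Etv5, a transcription factor gene of the ETS family, from 191 ± 16.7 to 5.23 ± 0.840 FPKM (SD, n = 3 per group). The genes nearest to Vip were Mrpl37 (0.13), P4ha2 (0.15) and H2-DMb2 (0.16). Unlike Vip, these kept 5.42%, 3.97% and 4.01% of their DMSO means. Unlike Ntsr1, listed at 0 with busulfan, Actg2, Etv5 and Klrb1c kept 3.24%, 2.74% and 2.77% of theirs. Both likenesses thus hold on the log2(FPKM + 1) scale, which compresses values under 1 FPKM.

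The upstream sequences of Vip and Ntsr1, the most different of the members, are shown as a description. Both genes were chosen with their low busulfan values known, and shared control was not tested. Each run is the 250 bases before the gene start from RefSeq (GRCm38.p6), 5′ to 3′. The capitals mark TGACG or its reverse complement CGTCA, the core of the cyclic AMP response element.
Vip, chr10:5638968-5639217, plus strand: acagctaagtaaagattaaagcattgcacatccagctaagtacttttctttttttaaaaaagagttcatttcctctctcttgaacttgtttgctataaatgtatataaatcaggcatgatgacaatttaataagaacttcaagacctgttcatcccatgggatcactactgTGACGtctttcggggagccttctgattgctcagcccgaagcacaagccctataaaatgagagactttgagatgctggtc
Ntsr1, chr2:180499726-180499975, plus strand: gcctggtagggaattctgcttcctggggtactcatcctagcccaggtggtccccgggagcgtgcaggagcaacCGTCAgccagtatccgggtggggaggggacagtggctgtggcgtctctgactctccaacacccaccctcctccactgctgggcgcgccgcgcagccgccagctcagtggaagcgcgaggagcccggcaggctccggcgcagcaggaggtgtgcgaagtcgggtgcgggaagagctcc
The match in Vip begins 79 bases before the start and reads on as TGACGTCT, which is not the full element TGACGTCA, and a TATAAA lies 30 bases before the start. TGACGTCT, chosen after the Vip sequence was seen, was in 0.451% of 32851 upstream windows of the same length on either strand. It was also upstream of Adcyap1, which was listed at 0 in every library. The core TGACG or CGTCA was upstream of 5 of the 8 genes that have a window (Adcyap1, Nts, Ntsr1, Vip and Vipr1), against 17.8% of all windows. A gene counts if any of its windows matches, and Adcyap1 has more than 1, while the percentages count windows. The full TGACGTCA was in none of the 8 and in 1.55% of all windows. TGANTCA, the AP-1 element, was upstream of Nts alone (6.75% of all windows), CCGGAA, an ETS core, of none (12.0%), both searched on both strands. TATAAA on the gene strand was upstream of Adcyap1 and Vip (7.59%). The windows of Vip and Ntsr1 differed in base composition, with 38.4% and 68.4% G or C. A match describes the letters of the window and is not a bound site.

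Markers of other cell types moved in the same libraries as Vip and Ntsr1, and their part in these values was not tested. Over all tested genes the fit called 42.8%, with 20.8% higher and 22.1% lower. Of 20 neuron and axon markers, 17 were under 1 FPKM in every library. The cholinergic genes Chat and Slc18a3 were at 0 throughout, and the tubulin gene Tubb3 reached 0.0466 FPKM in 1 library. The list summed to 40.8 to 49.0 FPKM in the DMSO libraries and 22.4 to 25.0 in the busulfan libraries, nearly all from Uchl1 and Rbfox3, and both fell (limma adjusted p = 1.02e-05 and 0.00591). All 4 tested Schwann cell markers were called higher, although the Mbp call was lost without DMSO replicate 2 or 3 or busulfan replicate 1 or 2, with sums of 42.2 to 45.8 and 65.2 to 70.0 FPKM. Of 8 fibroblast and 8 endothelial markers, 5 fell in each list and none rose. Their sums were 372 to 470 and 215 to 315 FPKM for fibroblasts, and 56.6 to 66.8 and 29.0 to 40.6 FPKM for endothelium, lowest in busulfan replicate 3. Of 8 smooth muscle markers, Actg2 and Mylk fell and 6 were not called (1964 to 2113 and 550 to 659 FPKM in sum, most of the difference from Actg2). Of 10 epithelial markers, 6 fell and 3 rose, with sums of 1261 to 1264 and 1197 to 1282 FPKM. Clear cell markers summed to 124 to 132 and 165 to 179 FPKM (5 of 7 tested rose, 1 fell), basal cell markers to 168 to 183 and 180 to 203 FPKM (2 of 6 rose, 2 fell), and leukocyte markers to 92.1 to 99.5 and 88.0 to 110 FPKM (2 of 6 rose, 1 fell). Spermatid and sperm transcripts summed to 67.2 to 87.1 and 37.5 to 65.2 FPKM (1 of 8 tested rose, 5 fell). Some of these calls were lost when 1 library was left out. The single leukocyte fall, Csf1r, was lost without DMSO replicate 2 or 3 or busulfan replicate 2 or 3 (limma adjusted p of 0.061 to 0.084), and the fibroblast fall of Dpt without any library but busulfan replicate 1 (0.0533 to 0.131). Among sperm transcripts, the Odf2 call was lost without any library but DMSO replicate 1 (limma adjusted p of 0.0626 to 0.102) and the Prm2 call without DMSO replicate 1 or 2 (0.054 to 0.0644). The Epcam call was lost without DMSO replicate 1 or 3 (limma adjusted p of 0.0512 to 0.0531).

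**Figure D3:**
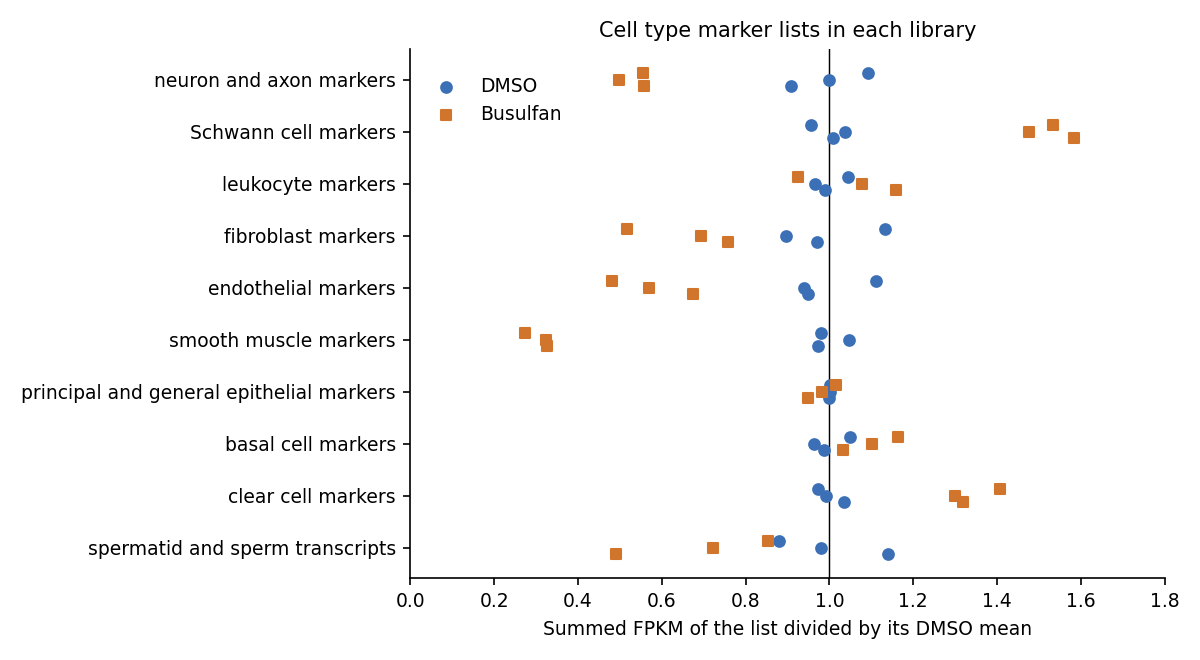
Summed FPKM of each cell type marker list in every library, divided by the list's DMSO mean (horizontal axis), with circles for DMSO, squares for busulfan and a line at 1. The neuron, fibroblast, endothelial and smooth muscle lists lie lower in all busulfan libraries, as does the spermatid and sperm list by a narrow gap. The neuron sum is nearly all Uchl1 and Rbfox3, and most of the smooth muscle difference is from Actg2. The Schwann and clear cell lists lie higher, while the epithelial list stays near 1.

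The rest of the peptide system was followed in 7 lists of genes that are not among the 10. Of 50 other neuropeptide precursor genes, 20 were listed at 0 in every library and 11 were tested, of which 4 rose, 2 fell and 5 were not called, with a median log2 change of 0.05 (-0.00 over all tested genes, of which 42.8% were called). Npy, the neuropeptide Y gene, rose from 23.0 ± 2.31 to 33.9 ± 3.64 FPKM (log2 change 0.54, limma adjusted p = 0.00246). Ppy, which encodes pancreatic polypeptide of the same family, rose from 49.5 ± 4.66 to 68.4 ± 4.25 FPKM (adjusted p = 0.0019). Iapp, the amylin precursor gene, and Cartpt also rose, by 0.87 and 0.73 on the log2 scale. Tac2, which encodes neurokinin B in the mouse, fell from 5.43 ± 1.56 to 2.65 ± 0.357 FPKM (limma adjusted p = 0.00614). Kiss1, the kisspeptin gene, was at 21.5 ± 6.21 and 13.1 ± 2.23 FPKM (limma adjusted p = 0.0252), a call lost without DMSO replicate 1 or 3 or busulfan replicate 2 or 3 (adjusted p of 0.0552 to 0.0740). The other opioid precursors were low, with Pomc at 1.72 ± 0.425 and 1.798 ± 0.586 FPKM, Pnoc at most 0.299 FPKM and Pdyn at 0. Penk therefore held nearly all of the summed opioid precursor FPKM, which was 85.1 to 107 with DMSO and 105 to 112 with busulfan.

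Of 69 other receptor and receptor-partner genes, 12 were tested, 2 rose (Ramp1 and Avpr1a), 2 fell (Oxtr and Calcrl) and 8 were not called, with a median log2 change of 0.21. The share called was 33.3%, against 42.8% of all tested genes. Oxtr, the oxytocin receptor gene, fell from 40.2 ± 3.03 to 20.7 ± 0.528 FPKM (limma adjusted p = 1.41e-05). Calcrl, which encodes the receptor of CGRP and adrenomedullin, fell from 4.23 ± 0.857 to 2.78 ± 0.0596 FPKM. Its partner gene Ramp1 and the vasopressin receptor gene Avpr1a had log2 changes of 0.41 and 0.52. The Ramp1 call was lost without DMSO replicate 3 or busulfan replicate 1 or 2 (limma adjusted p of 0.0565 to 0.0642). The Avpr1a call was lost without DMSO replicate 1 or 3 or busulfan replicate 1 (limma adjusted p of 0.0551 to 0.0692). The opioid receptor genes Oprd1, Oprm1, Oprk1 and Oprl1 together summed to at most 0.307 FPKM with DMSO and 0.0610 with busulfan. Oprm1, the mu receptor gene, was at 0.0997, 0.0462 and 0.307 FPKM with DMSO and listed at 0 with busulfan. These values are next to 0, and without the filter on low values Oprm1 was not called (limma adjusted p = 0.122). Ogfr, which encodes a nuclear-associated receptor of Met-enkephalin outside the G protein-coupled family, was at 18.4 ± 1.49 and 18.9 ± 1.03 FPKM. Adcyap1r1, the PACAP-preferring receptor gene, was at 0.433 ± 0.0620 and 0.235 ± 0.0237 FPKM. Sctr, the secretin receptor gene of the same family, was at most 0.165 FPKM.

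Some low genes of these lists had the form seen in Vip and Ntsr1 but did not reach the mean of 1 FPKM, and they were singled out after their values were seen. Tac1, which encodes substance P, was at 1.66, 1.45 and 1.36 FPKM with DMSO and was listed at 0 in the busulfan libraries. The somatostatin receptor genes Sstr1 (0.732, 0.910 and 1.89 FPKM) and Sstr5 (0.848, 0.656 and 0.756 FPKM) were likewise listed at 0 in all busulfan libraries. Without the filter on low values limma gave adjusted p-values of 2.26e-05 for Tac1, 0.00465 for Sstr1 and 9.43e-05 for Sstr5. Over all rows the same fit, with 5596 of 24346 left out as 0 in every library, called 2622 higher and 2899 lower. Of 69 receptor genes, 9 of them at 0 in every library, it called 4 higher and 6 lower. Of 50 precursor genes, 20 of them at 0 in every library, it called 5 higher and 2 lower. Nothing is read from these counts. Low genes called higher included Npy6r and Mc5r (log2 changes 0.45 and 0.30, limma adjusted p = 0.00505 and 0.0455). Tacr1, the substance P receptor gene, was at 0.240 FPKM on average in the DMSO libraries and at most 0.0517 FPKM in the busulfan libraries (limma adjusted p = 0.0048 without the filter).

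**Figure D4:**
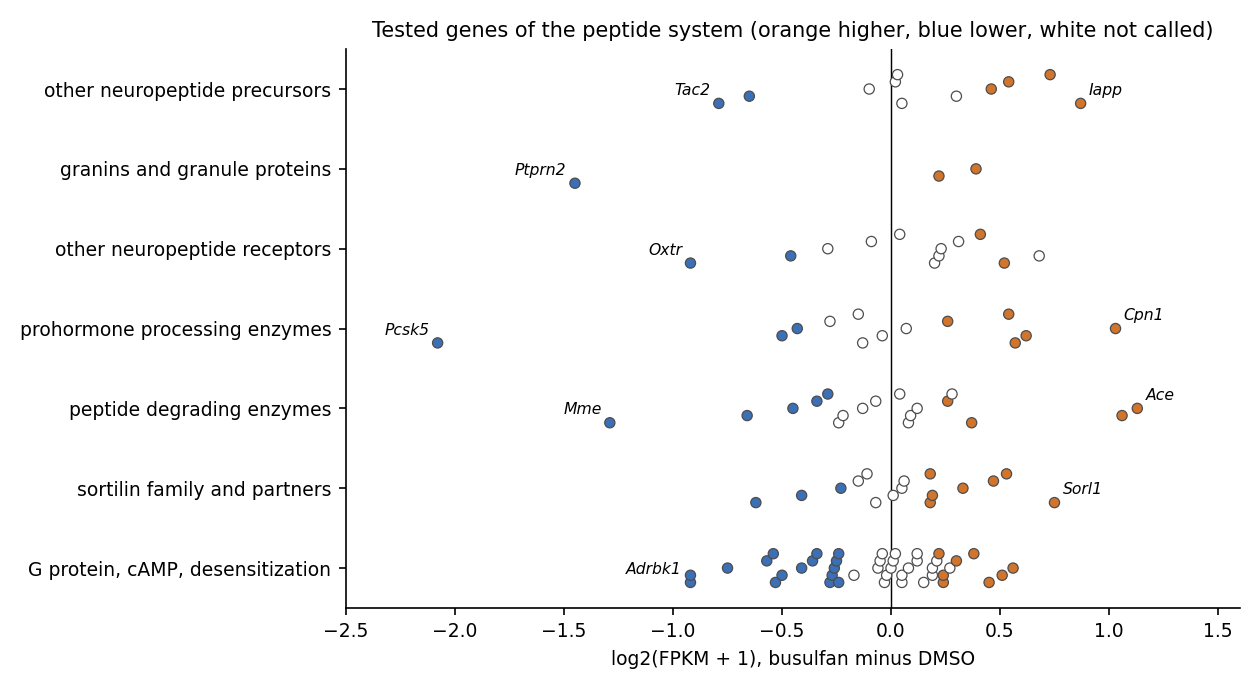
Log2 change (busulfan minus DMSO, log2(FPKM + 1) scale, horizontal axis) of each tested gene in 7 lists of the peptide system, with orange for genes called higher, blue for genes called lower and white for genes not called. Each list has genes on both sides of 0, and Pcsk5 (-2.08), Ptprn2 (-1.45), Mme (-1.29) and Ace (1.13) lie farthest out.

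Genes that make and break neuropeptides moved in both directions, as did all tested genes (42.8% called, 20.8% higher and 22.1% lower). Of 13 tested processing genes, 5 rose, 3 fell and 5 were not called (61.5% called, median -0.04). Pcsk5, a proprotein convertase gene, fell from 37.9 ± 2.79 to 8.22 ± 1.03 FPKM (limma adjusted p = 1.22e-06), and Cpe, the carboxypeptidase gene that trims peptide precursors, fell by 0.43 on the log2 scale. Furin, another convertase gene, rose by 0.26. Ctsl, the gene of cathepsin L, a protease that can cleave proenkephalin, rose from 335 ± 19.1 to 515 ± 7.83 FPKM (limma adjusted p = 6.39e-05), and the aminopeptidase B gene Rnpep rose by 0.57 on the log2 scale. Cpn1 was at 0.543 ± 0.3496 and 2.25 ± 1.205 FPKM, a call lost without DMSO replicate 2 or 3 or busulfan replicate 2 (limma adjusted p of 0.0505 to 0.0636). Pam, which amidates VIP and PACAP, was at 17.6 ± 1.45 and 15.8 ± 1.77 FPKM and was not called. Of 18 tested peptidase genes, 4 rose, 5 fell and 9 were not called (50% called, median -0.01). Mme, the gene of neprilysin, which degrades enkephalins, fell from 15.02 ± 0.568 to 5.55 ± 0.143 FPKM (limma adjusted p = 1.6e-06). Dpp4 and Ace rose 2.14-fold and 2.18-fold, with Ace reaching 399 ± 51.5 FPKM.

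All 3 tested genes of secretory granules were called, against 42.8% of all tested genes. Ptprn2, which encodes a membrane protein of dense-core granules, fell from 2.103 ± 0.316 to 0.137 ± 0.0792 FPKM (limma adjusted p = 7.41e-05). Without any 1 of the DMSO libraries its mean was under the filter. Nucb2, the nesfatin precursor gene, rose from 263 ± 12.0 to 306 ± 4.78 FPKM. Scg5 was at 3.13 ± 0.417 and 4.42 ± 0.662 FPKM, a call lost when DMSO replicate 2 or 3 or busulfan replicate 1 or 3 was left out (limma adjusted p of 0.0743 to 0.0946). The granins Chga, Chgb, Scg2 and Vgf did not reach the filter.

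Of 16 tested relatives and partners of sortilin, 7 rose, 3 fell and 6 were not called (median 0.05). That is 62.5% called, against 42.8% of all tested genes (20.8% higher and 22.1% lower). Under quantile normalization 9 rose and 2 fell, against 3234 and 2307 over all genes. Leaving out DMSO replicate 2 or 3 or busulfan replicate 1 or 2 left 4 that rose and 3 that fell, and 5 rose without DMSO replicate 1 or busulfan replicate 3. Sorl1, the gene of the sortilin relative SORLA, rose 1.76-fold, from 8.07 ± 0.877 to 14.2 ± 0.876 FPKM (limma adjusted p = 0.000249). Gga2 and Gga3, whose proteins carry sortilin from the Golgi, rose 1.39-fold and 1.52-fold, while Gga1 of the same family was not called. The sortilin relatives Sorcs1 and Sorcs3 were at most 0.146 FPKM, and Sorcs2 was at 7.96 ± 0.794 and 7.10 ± 0.863 FPKM.

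Of 43 tested genes downstream of the receptors, 16 fell, 8 rose and 19 were not called (median -0.02). That is 55.8% called, against 42.8% of all tested genes (22.1% lower and 20.8% higher). Under median scaling the split was 15 lower and 12 higher, against 2555 and 2971 over all genes. Adrbk1 and Adrbk2 encode receptor kinases. Adrbk1 fell from 37.7 ± 1.86 to 19.4 ± 0.475 FPKM, Adrbk2 fell to 1.56 ± 0.221 from 3.30 ± 0.114 FPKM, and the arrestin gene Arrb2 fell from 27.4 ± 1.72 to 14.0 ± 1.33 FPKM (limma adjusted p = 6.4e-06, 0.000529 and 5.32e-05). Of the other arrestin, receptor kinase and RGS genes tested, Grk5 and Rgs2 had log2 changes of 0.38 and 0.24 and were called, the Rgs2 call being lost without DMSO replicate 1 or 2 or busulfan replicate 1 or 2 (limma adjusted p of 0.0635 to 0.132). Arrb1, Grk6 and Rgs4 were not called, with log2 changes of -0.05, 0.00 and 0.01. Adcy7, an adenylyl cyclase gene, fell 1.53-fold. The stimulatory subunit gene Gnas, the inhibitory subunit gene Gnai2 and the protein kinase A genes Prkaca, Prkacb, Prkar1a and Prkar2a also fell, while the inhibitory subunit genes Gnai1 and Gnao1 and the phosphodiesterase genes Pde4a and Pde4c rose. Of the same phosphodiesterase family, Pde4b was not called (log2 change 0.12), and Pde4d was called lower (-0.34), a call lost without DMSO replicate 2 or 3 or busulfan replicate 1 or 2 (limma adjusted p of 0.0516 to 0.0729). The Prkar2a call was lost without DMSO replicate 2 or 3 or busulfan replicate 2 (limma adjusted p of 0.0575 to 0.066).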

How the data were processed

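Poly(A) RNA libraries of 3 DMSO and 3 busulfan samples (TruSeq stranded mRNA kit, per the labels' protocols) were compared. Values are FPKM as normalized and deposited by the authors in 1 table, per the file headers. The submitters' processing notes name TopHat2 2.1.1, Cufflinks 2.2.1 and mm10. The sources used here do not give the normalization between libraries, the annotation or the strand setting. FPKM depend on library totals, so a fall of abundant genes can raise others.

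The test was limma 3.58.1 on log2(FPKM + 1) for rows whose mean reached 1 FPKM (R 4.3.3, mean-variance trend, all 6 libraries) at the Benjamini-Hochberg threshold of 0.05, and the fit was tested on simulated data. Log2 differences are busulfan minus DMSO and understate changes of low genes. Counts were not recovered, so no count test was run. Members and lists were chosen with earlier results of these data known. Genes named from each list are the 4 largest called changes, or the 2 most abundant members if none was called, plus close relatives of the members and the 3 genes nearest in profile to Vip and to Ntsr1. Other named genes were chosen after their values were seen. Some genes that the rule names are not reported here. Upstream windows came from RefSeq (GRCm38.p6, 8 of 10 genes matched), coding stretches and coordinates from GENCODE M21 (GRCm38), and alignments from Biopython 1.88. Figures used matplotlib 3.10.9.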

Additional observations from a re-analysis of the deposited data

How the results depend on the processing

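The log2 differences of Vip and Ntsr1 depend on the pseudocount. With 0.1 in place of 1 they were -7.36 and -8.14, and Oprd1 was at 0.09, by construction of the scale. Sort1 was at 0.43 after quantile normalization. Without each library in turn, Vip ranged from -4.38 to -4.18, Ntsr1 from -4.92 to -4.79, Ntsr2 from 0.66 to 1.06, Sort1 from 0.25 to 0.30 and Penk from 0.14 to 0.30. Over all genes 4447 to 5046 were called without 1 library, against 5501 with all. Quantile normalization gave 3234 higher and 2307 lower against 2668 and 2833. Called receptor genes numbered 10 with no filter, 1 at a mean of at least 5 FPKM and 2 to 4 without 1 library (2 without DMSO replicate 3). Called granule genes numbered 1 at that mean and 1 to 3 without 1 library (1 without DMSO replicate 2 or 3). The filters change the number of genes tested, and otherwise the cause was not tested. Of 64 called genes of the 7 lists, 48 were called under every alternative of the 12 that tested them, and none changed sign. A fit with the replicate number as a block called 4627 genes, and same-numbered replicates did not deviate together (correlations -0.18, -0.0246 and -0.175 across genes), so the numbers were not taken as pairs. The block moved the called sortilin partners from 10 to 7 and the downstream genes from 24 to 19. Values at or next to 0, as for Nts and Oprd1, cannot show a difference at this depth.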
